A study of Mus with 4 samples.

Results

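The Ly49 receptors are encoded by the Klra genes, and 10 of them (Klra1 to Klra9 and Klra16) were examined in liver natural killer (NK) cells that lack the DX5 antigen. They were taken from a table that names 32938 genes by choosing every probe set, a group of array probes summarised to 1 value, whose annotation names a Klra gene. This gave 12 probe sets. Of the 10 genes, 6 (Klra2, Klra3, Klra6, Klra7, Klra9 and Klra16) had a probe set naming that gene alone, and 4 (Klra1, Klra4, Klra5 and Klra8) were named only by a probe set shared with other genes. The remaining probe sets named Klra10, Klra17, and Klra23 together with the pseudogene Klra13-ps. In all, 8 probe sets named a single gene and 4 were shared, and the shared ones are given apart.

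RNA came from 4 samples sorted from the livers of female mice on a C57BL/6 background, aged 6 to 8 weeks. Wild-type (WT) mice gave 2 of the arrays, and the other 2 came from dnTGFbRII mice, which carry a dominant-negative TGF-beta receptor II. The labels name neither the promoter of this transgene nor the cells that express it, and the widely used line of this name drives it from a Cd4 promoter in T cells. No treatment is labelled for either genotype. The labels do not state whether the 2 samples of each genotype were separate animals or sorts, so any p-value reflects only how far these samples differ from each other, and that spread may be technical.

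Ly49 receptors are C-type lectin-like proteins of rodent NK cells that bind class I major histocompatibility (MHC) molecules. Inhibitory members carry a tyrosine motif in their tail that recruits phosphatases such as SHP-1, while activating members lack it and signal through the adaptor DAP12. Each NK cell expresses its own subset of the family, so that a population holds many combinations. Circulating NK cells carry many Ly49 receptors, whereas liver-resident NK cells, or type 1 innate lymphoid cells, carry few of them and are known for Ly49E.

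The values are log2 expression values, so a difference of 1 is a 2-fold difference. The array medians lay between 4.20 and 4.26. The 6 NK identity genes checked, among them Nkg7 and Klrk1, had mean log2 values of 15.89 and 16.15 in WT and 15.82 and 16.11 in dnTGFbRII cells, and all 6 overlapped between the genotypes. Most T cell markers (8 of 10 tested) were higher in the dnTGFbRII mean, against 47.4% of all genes tested. All 12 dendritic cell markers tested were lower, against 52.6%. No detection call accompanies the values. The 23 background probe sets of the array ranged from 2.13 to 6.21, and Klra2 and Klra17 lay within that range on all 4 arrays. All 12 Klra probe sets passed the filter of 4.22, the median of all probe-set means, and did so in each genotype's mean.

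The family did not move as 1 unit between the genotypes. Klra7, Klra6 and the shared probe set of Klra4 and Klra1 were higher in dnTGFbRII cells, by 2.45-fold to 6.18-fold, with no overlap between the genotypes. Klra16 was also higher without overlap, but its WT values lay within the range of the background probe sets, so no fold is given for it. Klra9, Klra3 and the shared probe set of Klra5 and Klra6 were lower, by 1.31-fold to 1.77-fold, also without overlap. The shared probe set of the activating receptor gene Klra8 overlapped, and so did Klra2. Of the 8 single-gene probe sets, 4 differences were positive and 4 negative, with a median of -0.03 against -0.01 over all genes tested. Their median absolute difference was 0.65, against 0.10 over all 16245 genes tested.

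No Klra probe set passed limma's test with Benjamini-Hochberg adjustment at 0.05 (lowest adjusted p = 0.9998), and neither did any other gene (0% of genes tested). At an unadjusted p under 0.05, limma counted 4 of the 8 single-gene probe sets, against 3.23% of genes tested. Of these, 3 were higher in dnTGFbRII cells (1.95% of genes tested) and 1 was lower (1.29%). The genotypes did not overlap for 7 of the 8, against 27.2% of genes tested, with 3 on the higher side (12.6% of genes tested) and 4 on the lower side (14.5%). At least a 2-fold difference was seen for 3 of the 8 (0.893% of genes tested), Klra7, Klra6 and, against WT values within the background range, Klra16, all higher in dnTGFbRII cells (0.529%), and 0 were at least 2-fold lower (0.363%). With 2 arrays in each genotype, no exact permutation test (2-sided) can give a p below 0.333, so each difference below stands with the standard error (SE) and the 95% interval of the limma fit.

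**Figure D1:**
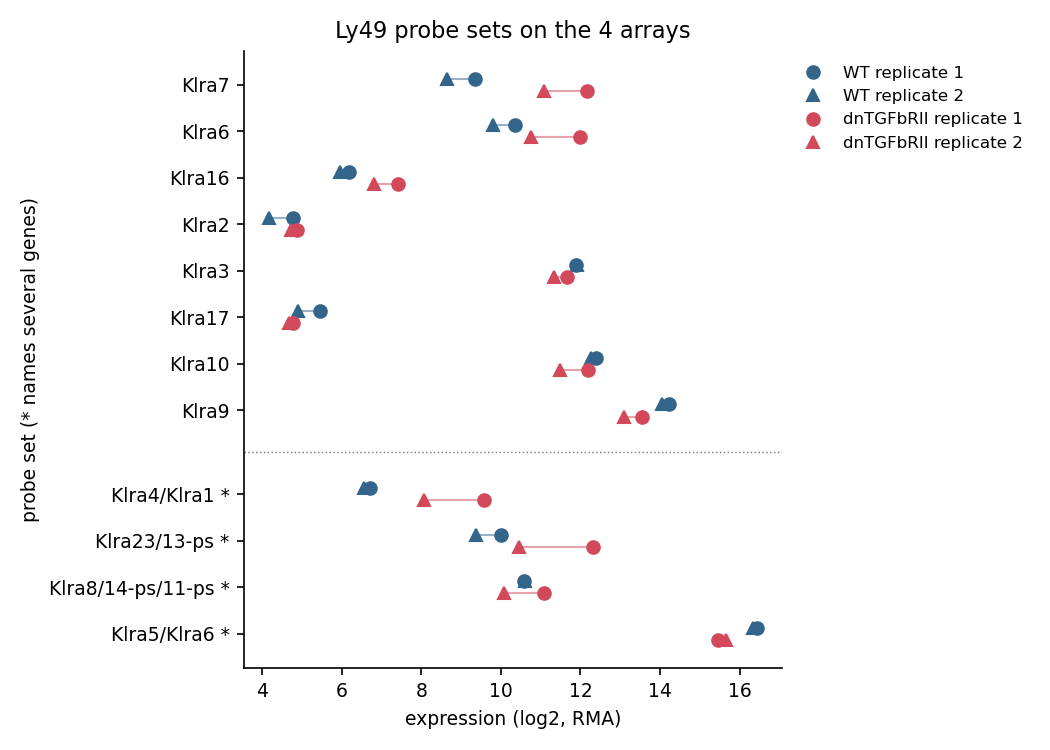
Log2 expression (horizontal axis) of the 12 Klra probe sets on the 4 arrays, blue for WT and red for dnTGFbRII, with circles for replicate 1 and triangles for replicate 2. Above the dotted line are the 8 probe sets naming 1 gene and below it the 4 shared ones. The Klra7 points of the genotypes lie farthest apart (8.64 and 9.35 against 11.07 and 12.16), while the Klra8 points overlap.

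Klra7 encodes Ly49G, an inhibitory receptor. It measured 9.35 and 8.64 on WT replicates 1 and 2 and 12.16 and 11.07 on dnTGFbRII replicates 1 and 2. Both dnTGFbRII arrays lay above both WT arrays, and the lowest dnTGFbRII value was 1.73 above the highest WT value. The WT mean was 8.99 ± 0.50 and the dnTGFbRII mean 11.62 ± 0.77 (SD, n = 2), a difference of 2.63 ± 0.45 (SE; 95% interval 1.44 to 3.81). This is 6.18-fold, and Klra7 ranked 14th by absolute difference among the 16245 genes tested.

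Klra6 encodes Ly49F, another inhibitory member. It measured 10.34 and 9.80 on WT replicates 1 and 2 and 11.99 and 10.75 on the dnTGFbRII replicates. The genotypes did not overlap, but dnTGFbRII replicate 2 lay only 0.41 above WT replicate 1, and the dnTGFbRII arrays were 1.24 apart. The difference was 1.29 ± 0.46 (SE; 95% interval 0.07 to 2.52), a 2.45-fold difference, and it was 0.68 without dnTGFbRII replicate 1.

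Klra1 and Klra4 share a probe set, and they encode receptors of opposite sign, the inhibitory Ly49A and the activating Ly49D. The predicted gene Gm15854 is named by it too. The probe set measured 6.71 and 6.56 in WT and 9.57 and 8.07 in dnTGFbRII cells. The WT arrays were 0.15 apart and both lay below the dnTGFbRII arrays, which were 1.51 apart. The difference was 2.19 ± 0.52 (SE; 95% interval 0.81 to 3.56), or 4.56-fold. The value cannot be assigned to Ly49A or to Ly49D, so it counts for neither class.

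Klra16 is the gene of Ly49P, which is known from other inbred strains and is not among the genes of the C57BL/6 cluster. Its probe set measured 6.17 and 5.95 in WT and 7.41 and 6.81 in dnTGFbRII cells. The WT values lay within the range of the background probe sets and the dnTGFbRII values above it. The difference was 1.05 ± 0.24 (SE; 95% interval 0.41 to 1.69). Which transcript its probes read in these mice was not tested.

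Klra9 encodes Ly49I, an inhibitory receptor that binds the class I molecule H2-K of C57BL/6 mice. It measured 14.22 and 14.06 in WT and 13.55 and 13.09 in dnTGFbRII cells, so both dnTGFbRII arrays were below both WT arrays. The means were 14.14 ± 0.11 and 13.32 ± 0.33 (SD, n = 2). The difference was -0.82 ± 0.20 (SE; 95% interval -1.36 to -0.29), which is 1.77-fold lower.

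Klra3 encodes Ly49C, the other inhibitory receptor of these mice that binds H2-K. It measured 11.89 and 11.90 on the WT arrays and 11.67 and 11.33 on the dnTGFbRII arrays. The genotypes did not overlap, and the gap between them, 0.22, was smaller than the 0.34 between the dnTGFbRII arrays. The difference was -0.39 ± 0.16 (SE), with a 95% interval of -0.83 to 0.04 that includes 0.

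Klra5 encodes Ly49E, an inhibitory member found on fetal NK cells and on liver-resident NK cells of adults. The probe set it shares with Klra6 measured 16.44 and 16.33 in WT and 15.46 and 15.67 in dnTGFbRII cells. The arrays of a genotype were 0.12 and 0.21 apart, and both dnTGFbRII arrays lay below both WT arrays. The difference was -0.82 ± 0.14 (SE; 95% interval -1.19 to -0.44), a 1.76-fold lower value. It ran opposite to the probe set of Klra6 alone. Within each array, the Klra6 value minus that of the shared probe set was -6.10 and -6.52 in WT and -3.48 and -4.92 in dnTGFbRII cells, a shift of 2.11. The probe set named for both genes therefore did not follow the one named for Klra6.

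Klra2 encodes Ly49B, an inhibitory member known from myeloid cells. It measured 4.77 and 4.16 in WT and 4.88 and 4.71 in dnTGFbRII cells, and the genotypes overlapped. Its difference of 0.33 ± 0.24 (SE; 95% interval -0.31 to 0.97) was smaller than the 0.62 between the WT arrays.

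Klra8 encodes Ly49H, the activating receptor that recognises a mouse cytomegalovirus protein on infected cells. Its probe set also names the pseudogenes Klra14-ps and Klra11-ps. It measured 10.59 and 10.60 in WT and 11.07 and 10.08 in dnTGFbRII cells, so the WT arrays lay between the dnTGFbRII arrays. The difference was -0.02 ± 0.35 (SE), and its 95% interval of -0.95 to 0.91 leaves room for nearly a 2-fold change either way. It was 0.48 without dnTGFbRII replicate 2 and -0.51 without dnTGFbRII replicate 1.

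Inhibitory and activating receptors could therefore be set against each other only through the Klra8 probe set. For this, 6 probe sets naming only inhibitory genes of the 10 were averaged: Klra2, Klra3, Klra6, Klra7, Klra9 and that of Klra5 and Klra6. Klra6 is named by both its own probe set and the shared one, and these differed in opposite directions (1.29 and -0.82). Klra2 lay within the range of the background probe sets on all 4 arrays. The mean of the 6 less the Klra8 value was 0.58 and 0.21 on the WT arrays and 0.55 and 1.02 on the dnTGFbRII arrays. The genotypes overlapped, and the shift of 0.39 compares with a pooled SD of 0.30. Leaving out 1 array at a time gave shifts of 0.15 to 0.63. Klra10 and the inhibitory Klra17 are not among the 10 genes and stayed out of the mean. Both were lower in dnTGFbRII cells (-0.48 and -0.46), so adding them would make the shift smaller. Inhibitory members also went opposite ways. For the pair with the highest and the lowest difference among the single-gene inhibitory probe sets, chosen for being the extremes, Klra7 minus Klra9 went from -4.87 and -5.42 on the WT arrays to -1.39 and -2.01 on the dnTGFbRII arrays, a shift of 3.45. Klra7 minus the Klra8 probe set went from -1.24 and -1.97 to 1.09 and 0.99.

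The remaining Klra probe sets also went both ways. Klra10, the gene of Ly49J, measured 12.39 and 12.26 in WT and 12.19 and 11.49 in dnTGFbRII cells, a difference of -0.48 ± 0.26 (SE) that ranged from -0.83 to -0.14 with 1 array left out at a time. Klra17, the gene of Ly49Q, an inhibitory receptor of plasmacytoid dendritic cells, measured 5.44 and 4.90 in WT and 4.77 and 4.67 in dnTGFbRII cells (-0.46 ± 0.22 SE, and -0.72 to -0.19 with 1 array left out). In both cases the genotypes did not overlap and the 95% interval included 0. The probe set of Klra23 and Klra13-ps measured 10.01 and 9.36 in WT and 12.31 and 10.45 in dnTGFbRII cells. It was higher on both dnTGFbRII arrays, by 1.69 ± 0.66 (SE; 95% interval -0.07 to 3.45), and these arrays were 1.85 apart. Without dnTGFbRII replicate 1 its difference was 0.77 and without dnTGFbRII replicate 2 it was 2.62. Klra23 is known from another strain and Klra13-ps is a C57BL/6 pseudogene, so this signal belongs to no receptor of these mice by name.

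Close copies within the family can share probe sequence, so the value of a single member is uncertain, and how much signal the 12 probe sets share was not tested. In the order of the genes on chromosome 6, Klra9, Klra7 and Klra10 are neighbours, and their differences were -0.82, 2.63 and -0.48. Klra3 (-0.39) lies between Klra13-ps, whose shared probe set was higher, and Klra1. With single-gene probe sets alone, neighbouring members thus differed in direction at Klra9, Klra7 and Klra10. Elsewhere the contrast rests on a shared probe set, whose signal cannot be placed at 1 gene.

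**Figure D2:**
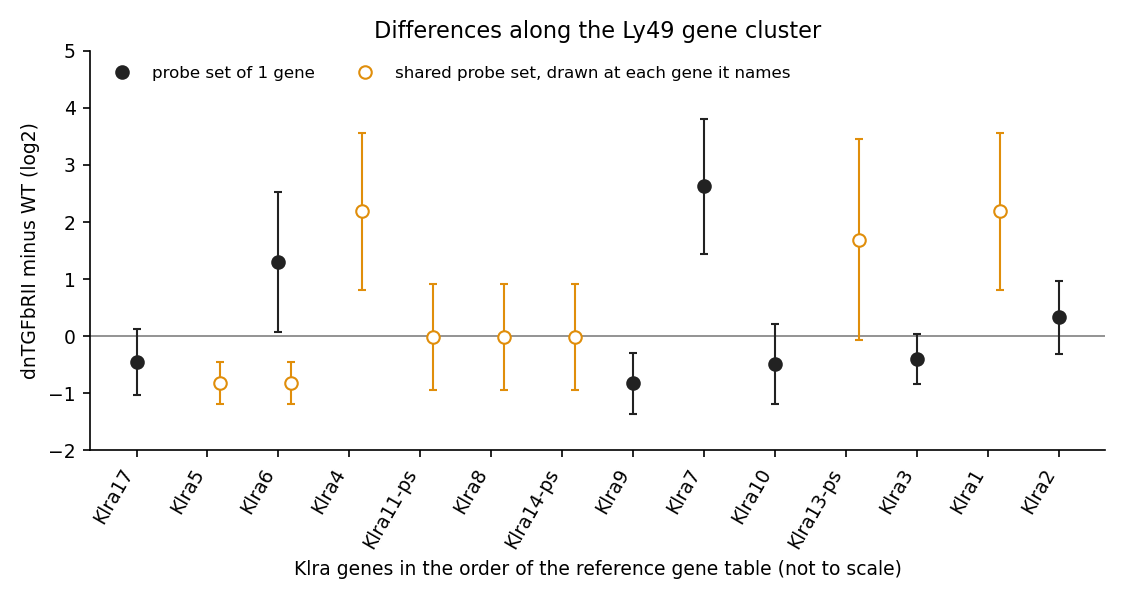
Log2 difference, dnTGFbRII minus WT (vertical axis), of the Klra probe sets, with the genes in the order of the mouse reference gene table and not to scale. Bars are 95% intervals of the limma fit. Filled points are probe sets of 1 gene, and open points are shared probe sets drawn at each gene they name (Klra16 and Klra23 have no place in this order). Klra7 (2.63) stands between Klra9 (-0.82) and Klra10 (-0.48).

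The dnTGFbRII arrays differed from each other more than the WT arrays did for several members. Replicate 1 lay above replicate 2 for 11 of the 12 probe sets in dnTGFbRII cells and for 10 of the 12 in WT cells, against 51.7% and 52.7% of all genes tested. The probe set of Klra5 and Klra6 was the exception in dnTGFbRII cells. The gap between the dnTGFbRII arrays was 1.09 for Klra7, 1.51 for the probe set of Klra4 and Klra1 and 0.47 for Klra9, where the median gap over all genes tested was 0.21. The higher members were thus highest on dnTGFbRII replicate 1, and the members that were lower in dnTGFbRII cells were mostly lowest on replicate 2. With 1 array left out at a time, the Klra7 difference ranged from 2.08 to 3.17, that of Klra4 and Klra1 from 1.44 to 2.94, that of Klra9 from -1.05 to -0.59 and that of Klra5 and Klra6 from -0.92 to -0.71.

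**Figure D3:**
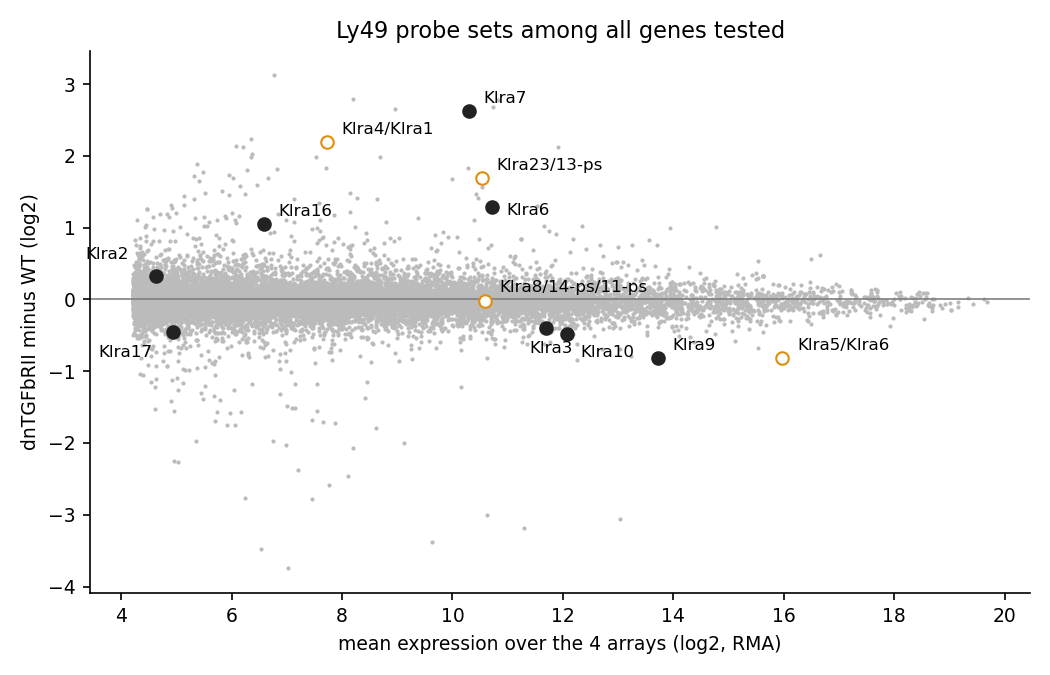
Log2 difference, dnTGFbRII minus WT (vertical axis), against the mean log2 expression over the 4 arrays (horizontal axis). Grey points are the 16245 genes tested, black points the 8 single-gene Klra probe sets and open points the 4 shared ones. Klra7 and the probe set of Klra4 and Klra1 lie at the upper edge of the cloud and that of Klra8 at its centre.

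The genes with the profile most like that of Klra7 over the 4 arrays, by the root mean square distance between profiles centred on their own mean, were Ly6c2 (distance 0.15), Trav12d-2 (0.27), Eomes (0.30), Trav16d-dv11 (0.31) and Cd3e (0.32). Ly6c2 encodes a Ly6C surface protein, Eomes a T-box factor of circulating NK cells, Cd3e a chain of the CD3 complex, and the Trav genes are variable segments of the T cell receptor alpha chain. Eomes measured 6.78 and 6.81 in WT and 10.30 and 8.87 in dnTGFbRII cells, and like Klra7 it was higher on dnTGFbRII replicate 1 than on replicate 2. The WT values of the Trav genes lay within the range of the background probe sets. With 4 arrays, likeness describes these libraries only.

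Most ligand and signalling partner genes of the receptors had differences close to 0. Of 6 class I genes tested, limma called 0 at the adjusted threshold and 0 at an unadjusted p under 0.05, with a median difference of 0.02. H2-K1, the ligand of Ly49C and Ly49I, differed by 0.02 ± 0.12 (SE), H2-D1 by 0.01 ± 0.12 and B2m, the light chain of class I molecules, by 0.09 ± 0.12. Tyrobp, which encodes DAP12, measured 17.77 and 18.06 in WT and 17.70 and 18.03 in dnTGFbRII cells and overlapped, while Hcst, the gene of the adaptor DAP10, differed by 0.19 ± 0.15. Of the 21 adaptor and kinase genes tested, 2 were higher and 1 lower at an unadjusted p under 0.05 in limma (1.95% and 1.29% of all genes tested), and 0 at the adjusted threshold. These were Sh2d1a (1.69 ± 0.33), the SAP adaptor gene, and Fyn (0.52 ± 0.13), a Src-family kinase, on the higher side and Sh2d1b1 (-0.40 ± 0.13), an EAT-2 adaptor gene, on the lower side. The WT values of Sh2d1a (5.72 and 5.89) lay within the range of the background probe sets. All 8 inhibitory phosphatase and adaptor genes had negative differences (median -0.17), as had 52.6% of all genes tested, led by Ptpn6, which encodes SHP-1 (-0.40 ± 0.18), and limma called 0 of them at either threshold, unadjusted or adjusted.

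Other receptors of the NK gene complex leaned to the lower side. Of 18 tested, 15 differences were negative, against 52.6% of all genes tested, and the median was -0.19. At an unadjusted p under 0.05 in limma, 2 were lower, Klrc3 (-0.69 ± 0.13), the gene of NKG2E, and Klrc2 (-0.60 ± 0.15), the gene of NKG2C, and 2 were higher, Klrg1 (2.03 ± 0.56) being the one with the largest statistic. The shares over all genes tested were 1.29% lower and 1.95% higher. None passed the adjusted threshold. The WT values of Klrg1 (5.42 and 5.28) lay within the range of the background probe sets, and its dnTGFbRII values were 8.21 and 6.55. Klra9, Klra3 and the Klra5 and Klra6 probe set thus shared their direction with most of this list, and Klra7 and Klra6 with Klrg1. Among 20 tested genes of transcription factors linked to NK receptor expression, 16 differences were positive (median 0.07), against 47.4% of all genes tested. At an unadjusted p under 0.05 in limma 4 were higher (1.95% of all genes tested) and 0 lower (1.29%). Ikzf2 (1.22 ± 0.21), which encodes Helios, Eomes (2.79 ± 0.49) and Lef1 (0.51 ± 0.13) led this list, and 0 passed the adjusted threshold. The WT values of Lef1 (5.965 and 5.956) lay within the background range too.

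**Figure D4:**
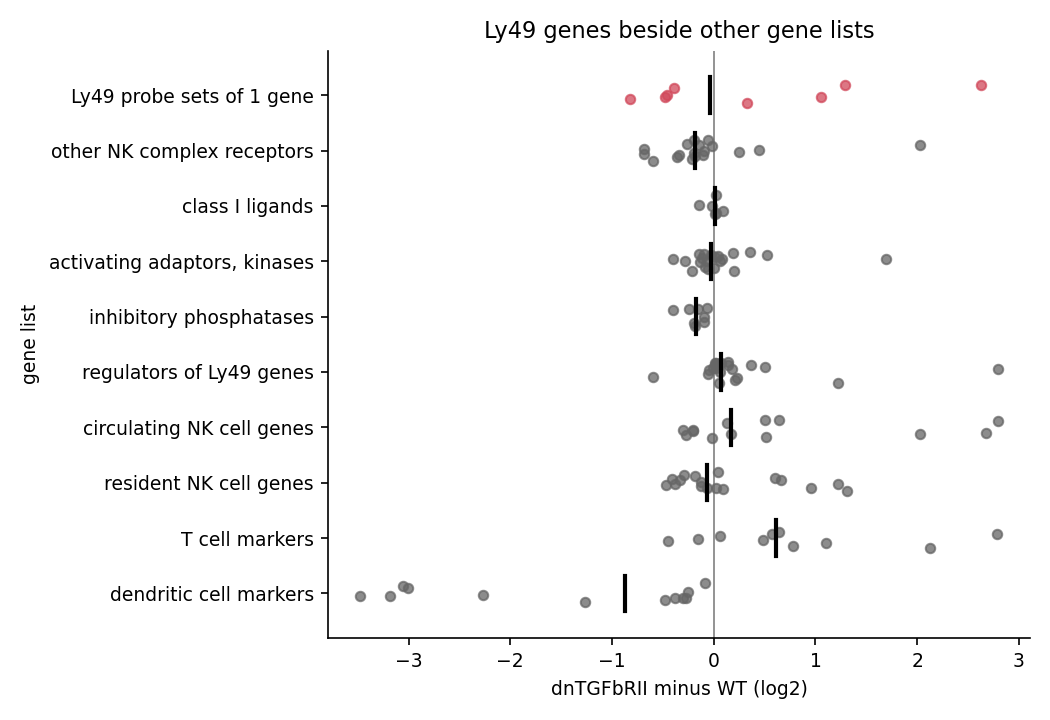
Log2 differences, dnTGFbRII minus WT (horizontal axis), of the 8 single-gene Klra probe sets (red) and of the tested genes of 9 other lists (grey), 1 point per gene with random vertical scatter. Black bars are medians. The Klra points lie on both sides of 0 (median -0.03), while T cell markers lie mostly above it and dendritic cell markers below it.

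Markers of some cell populations also differed between the genotypes, and their levels are given as means over the genes tested. The 13 circulating NK cell genes tested had mean log2 values of 8.84 and 8.77 on the WT arrays and 9.54 and 9.36 on the dnTGFbRII arrays. Of their differences 8 were positive and 5 negative, with a median of 0.17, and the largest were those of Eomes (2.79), Ly6c2 (2.68) and Klrg1 (2.03). The genotypes did not overlap for 6 on the higher side (12.6% of genes tested) and 2 on the lower side (14.5%), Gzmb (-0.27) and Itgam (-0.31). Among the 13 genes, Itga2, which encodes the DX5 antigen, measured 8.32 and 8.56 in WT and 9.06 and 8.83 in dnTGFbRII cells (0.50 ± 0.16 SE). Resident NK cell genes were at 10.24 and 10.49 in WT and 10.38 and 10.64 in dnTGFbRII cells, with 8 of 17 differences positive. The genotypes did not overlap for 5 on the higher side (12.6% of genes tested) and 5 on the lower side (14.5%). At an unadjusted p under 0.05 in limma 4 were higher (1.95% of genes tested) and 1 was lower (1.29%). The largest statistics were those of Il2ra (0.96 ± 0.16), Ikzf2 (1.22 ± 0.21) and Il7r (1.31 ± 0.33), all higher in dnTGFbRII cells. T cell markers were at 8.12 and 7.80 in WT and 8.92 and 8.59 in dnTGFbRII cells. Of their 10 differences 8 were positive, against 47.4% of all genes tested. The genotypes did not overlap for 6 on the higher side (12.6% of genes tested) and 2 on the lower side (14.5%). Among the positive ones, Cd40lg, Cd5 and Cd4 lay within the range of the background probe sets on all 4 arrays. Cd3d differed by 2.13 ± 0.23, while Cd3g, another CD3 chain named after its values were seen, was lower without overlap (-0.45 ± 0.13). T cells and NKT cells can carry Ly49 receptors too. Whether these populations had a part in the Klra7, Klra6, Klra4 and Klra1 values was not tested, and a different number of cells of a type and a different amount of RNA per cell cannot be told apart in sorted bulk samples.

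Klra17, known from plasmacytoid dendritic cells, was highest on WT replicate 1. So were 11 of the 12 dendritic cell markers tested, Itgax being the exception, and the share over all genes was not counted. The mean log2 values of these markers were 9.21 and 7.75 in WT and 7.004 and 6.960 in dnTGFbRII cells. All 12 differences were negative, against 52.6% of all genes tested. Of the 12, Clec10a, Zbtb46, Batf3, Siglech and Ccr9 lay within the range of the background probe sets on all 4 arrays. The plasmacytoid markers among them, Siglech (-0.48 ± 0.35) and Ccr9 (-0.09 ± 0.15), named after their values were seen, overlapped between the genotypes. Macrophage and monocyte markers, a possible source of Klra2, were at 7.28 and 6.24 in WT and 6.45 and 6.85 in dnTGFbRII cells, with 4 of 7 differences positive. The part of these cells in the Klra17 and Klra2 values was not tested. Markers of B cells (3 tested) had means of 8.02 to 8.25 over the 4 arrays. Those of neutrophils (4 tested) were at 4.22 to 4.93 and those of hepatocytes (3 tested) at 7.27 to 7.98. Of these 10 genes, limma called 0 at the adjusted threshold and 1 at an unadjusted p under 0.05, Ngp of the neutrophil list. Ngp lay within the range of the background probe sets on all 4 arrays.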

How the data were processed

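The authors' deposited table holds log2 values for 4 arrays. The submitters' processing notes name RMA and Affymetrix Expression Console as the software. The genome build, annotation release and versions were not given in the sources used here, and no coordinates are printed. Groups and replicate numbers came from the sample titles. Of 72688 rows, 30604 name 1 gene and 2146 several in the platform annotation, and 39938 are unnamed here. Older symbols were updated through the GRCm38.p6 gene table, which was also used for gene order and matched 30300 of the single-gene rows. Each gene was read from its single-gene row with the highest mean, and 16245 genes with a mean above 4.217 were tested.

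Genotype effects were fitted in R 4.3.3 with limma 3.58.1 (constant prior, 2-sided), with Benjamini-Hochberg adjustment over all genes tested. Shared Klra probe sets were fitted in a second run of the same model with all shared rows added, an alternative chosen after seeing the data. Differences are dnTGFbRII minus WT, and their ± is the standard error. Named genes are the Klra probe sets, up to 3 tested genes per list with the largest statistics, 9 genes by name (Tcf7 among them had no single-gene row and is not reported) and the 5 profiles nearest to Klra7. Not every gene the rule allows is printed. The members and lists were chosen with earlier results of these data known. On simulated arrays of the 16245 genes, limma at an adjusted p of 0.05 found 4.78% of true log2 differences of 1, 76.1% for a size of 2 and 90.2% for a size of 3. The simulation changed 200 genes in each of 10 runs, with errors independent between arrays, and gave 48 false calls over all runs. In the data, deviations of same-numbered arrays were correlated (r = 0.5105) and the number of changed genes is unknown. The simulated shares may therefore not hold for these arrays. Precision is limited by there being 4 arrays.

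The fit was repeated with other filters (none, or the 75th percentile), with a robust trended prior, after quantile normalization or centring of the arrays, with rows of a gene averaged, with a replicate block, and without each array.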

Additional observations from a re-analysis of the deposited data

How the results depend on the processing

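Among the alternatives, only rescaling of the arrays and leaving out an array can change a Klra difference, and its sign was kept in 63 of 64 such values, 48 of them from left-out arrays. The exception was the Klra8 probe set, which ranged from -0.51 without dnTGFbRII replicate 1 to 0.48 without dnTGFbRII replicate 2 (limma adjusted p = 0.829 for the latter). Since 10 of the 12 probe sets did not overlap between genotypes, leaving out an array could not turn their sign, and the count is no measure of stability. With all 4 arrays, 0 of the single-gene Klra probe sets tested passed limma's adjusted threshold under any alternative. The stricter filter tested 6 of these 8. With all 4 arrays, the shared Klra probe sets were fitted only with the shared rows added, without or with the replicate block, and 0 passed. With 1 array left out at a time, which takes the spread from the genotype that still has 2 arrays, genes past the adjusted threshold numbered 0 to 6, with the 6 found without WT replicate 2 and none of them a Klra gene. The inhibitory minus activating shift ranged from 0.15 to 0.63 over the left-out arrays and could not be formed from single-gene probe sets, since no activating member has one. Genes at an unadjusted p under 0.05 in limma numbered 525 in the reported fit, 1259 with no filter, 184 with the stricter filter, 293 without WT replicate 1 and 960 without dnTGFbRII replicate 2. Deviations from the genotype means correlated between same-numbered arrays (r = 0.5105 over genes tested), but the labels give the number no meaning. With the replicate block, 0 genes passed the adjusted threshold in limma (lowest adjusted p of a Klra probe set 0.126). At an unadjusted p under 0.05 it counted 1467 of the 16245 genes tested and 7 of the 8 single-gene Klra probe sets. With the shared ones, taken from a separate block fit with shared rows added, the Klra count was 10 of the 12. The inhibitory minus activating shift (0.39) cannot change with a replicate block, since each genotype has both replicate numbers, so the block is no check on it. Among the Klra probe sets, signal near the background probe sets limits Klra2, Klra17 and the WT values of Klra16. The same limit holds for the WT values of Klrg1, Sh2d1a, Lef1, Trav12d-2 and Trav16d-dv11. It also holds on all 4 arrays for Ngp and for several T cell and dendritic cell markers, among them Siglech and Ccr9.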
